A study of Mus musculus with 16 samples.

Results

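Ercc1 and its direct partners in DNA excision, Ercc4 (which encodes XPF), Xpa and Slx4, were followed through mouse epidermis with and without C/EBPβ and with and without ultraviolet B (UVB). These 4 genes, out of 49585 in the count table, were found by matching Ensembl identifiers to GENCODE symbols. All 4 had enough counts to be tested. Ercc1 was chosen by its measured difference between knockout and control epidermis, unexposed and after UVB, as seen in earlier results from these data, so that difference is given below as a description, without a test. The partners were taken for their function.

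RNA sequencing measured transcripts in epidermis that was separated by heat shock from SKH-1 mice, a hairless stock, at 8 to 12 weeks of age. The 4 groups were K5Cre mice left unexposed (called control), K5Cre mice sampled 6 h after 100 mJ/cm2 of UVB, C/EBPB -/- mice left unexposed (called knockout; the labels describe an epidermis-specific deletion) and C/EBPB -/- mice sampled 6 h after the same dose. Each group had 4 libraries. The labels do not spell out the promoter behind K5Cre, whether the knockouts carry Cre, or whether each library is a separate animal, and the p-values therefore describe the spread among the libraries, which may be technical. The design crosses genotype with exposure and so asks how deletion changed unexposed and irradiated epidermis, how irradiation changed each genotype, and whether these responses differed.

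UVB joins neighbouring pyrimidine bases in DNA, and nucleotide excision repair removes the damaged stretch. XPC and the DDB complex find the distortion, TFIIH opens the strands, and XPA with RPA holds the opened site and brings in the ERCC1-XPF endonuclease, which cuts the damaged strand on one side while XPG, encoded by Ercc5, cuts on the other. ERCC1 and XPF depend on each other for stability, XPF carries the catalytic site, and ERCC1 contacts XPA. SLX4 is a scaffold that holds ERCC1-XPF and other nucleases for the repair of crosslinks and joined DNA intermediates.

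Ercc1 (ENSMUSG00000003549) lies on the plus strand of chromosome 7 from 19344778 to 19356524 in GRCm38. Ercc4 (ENSMUSG00000022545) lies on the plus strand of chromosome 16 from 13109684 to 13150617, and Slx4 (ENSMUSG00000039738) on the minus strand of the same chromosome from 3979105 to 4003770. Xpa (ENSMUSG00000028329) lies on the minus strand of chromosome 4 from 46155347 to 46196311. The merged exons of Ercc1, Ercc4, Xpa and Slx4 span 3111, 6730, 1894 and 7657 bases.

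Ercc1 and Xpa were the members whose transcripts changed after UVB, so sequence at their starts is shown (RefSeq, GRCm38.p6; 1 window matched for each of the 4 genes). For Xpa it is the 250 bases before the RefSeq start, chr4:46196312-46196561, minus strand, with capitals marking matches to the recognition motif of the factor NRF1. For Ercc1 it is a stretch of 30 bases beginning 13 bases into the transcript, chr7:19345083-19345112, plus strand, with capitals marking CCGGAAG, a core recognised by ETS factors.
Xpa: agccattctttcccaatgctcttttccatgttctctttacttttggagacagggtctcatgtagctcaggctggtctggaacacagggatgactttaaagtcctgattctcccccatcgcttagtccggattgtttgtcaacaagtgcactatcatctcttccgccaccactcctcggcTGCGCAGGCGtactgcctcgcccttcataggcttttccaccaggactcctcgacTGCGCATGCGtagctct
Ercc1: gaagggccagagcggCCGGAAGtgagtcta

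The motifs were searched on both strands in windows from 250 bases before to 50 bases after the RefSeq start. Xpa held 2 matches to the NRF1 motif, which was present in 3.14% of all 32851 windows, and the other 3 genes held 0. Ercc1 held 1 match to CCGGAAG (8.86% of windows) and 1 to GGGCGG, the Sp and KLF core (35.7% of windows). The C/EBP motif searched, TTGCNNAA, was in 10.8% of all windows. Of the 4 windows 0 held it, which says only that these letters are not in these windows. The AP-1 core TGANTCA (7.81% of windows) also had 0 matches in the 4. Slx4 had 1 match to CACGTG, the E-box (7.15% of windows). CCAAT (37.4% of windows) was found once each in Ercc4, Xpa and Slx4. All 250 upstream bases of the Ercc1 window lie inside an exon in GENCODE, so this RefSeq start is not the only annotated one. The Slx4 window, from 4001629 to 4001928, lies inside the GENCODE gene, which starts at 4003770 on the minus strand. Its matches therefore describe a window away from that start. For Ercc4, 52 of the 250 upstream bases lie in a GENCODE exon.

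Library totals were 32983160 to 53255160 counts. The deleted gene, Cebpb, had 155 to 186 CPM (counts scaled to the size of the library) in unexposed controls and 253 to 320 CPM in exposed controls, against 0.177 to 0.875 and 0.609 to 3.03 CPM in the knockouts. Keratinocyte markers were abundant in every group: the 8 genes Krt5, Krt14, Krt15, Krt1, Krt10, Krtdap, Lor and Flg together held 37689 to 76531 CPM per library. The 6 fibroblast markers summed to at most 9.9997 CPM, the 5 endothelial markers to at most 9.12 CPM and the 5 skeletal muscle markers to at most 1.11 CPM in any library. T cell markers (6 genes) summed to 52.6 to 104 CPM and melanocyte markers (5 genes) to 5.39 to 58.8 CPM. Mitochondrial transcripts took 4.33% to 10.2% of counts.

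Ercc1 was lowest in unexposed control epidermis and highest in irradiated knockout epidermis, with the ratio of these group means at 7.21. Levels are given as CPM scaled by library size and composition. The unexposed control libraries held 25.3, 21.4, 23.2 and 21.9 CPM of Ercc1, a mean of 23.0 ± 1.75 (SD, n = 4). The unexposed knockout libraries held 75.3, 63.1, 63.8 and 58.9 CPM, a mean of 65.3 ± 7.04 (n = 4). Every unexposed knockout library was above every unexposed control library. The exposed control libraries held 55.0, 60.7, 55.6 and 49.7 CPM of Ercc1, a mean of 55.2 ± 4.49 (n = 4). The exposed knockout libraries held 159, 141, 203 and 158 CPM, a mean of 165 ± 26.4 (n = 4). Exposed knockouts stood above all other libraries. In the order of the levels, exposed controls and unexposed knockouts overlapped, between 58.9 and 60.7 CPM, while every other pair of neighbouring groups was separate. In whole epidermis, more cells that make a transcript and more of it in each cell cannot be told apart.

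**Figure D1:**
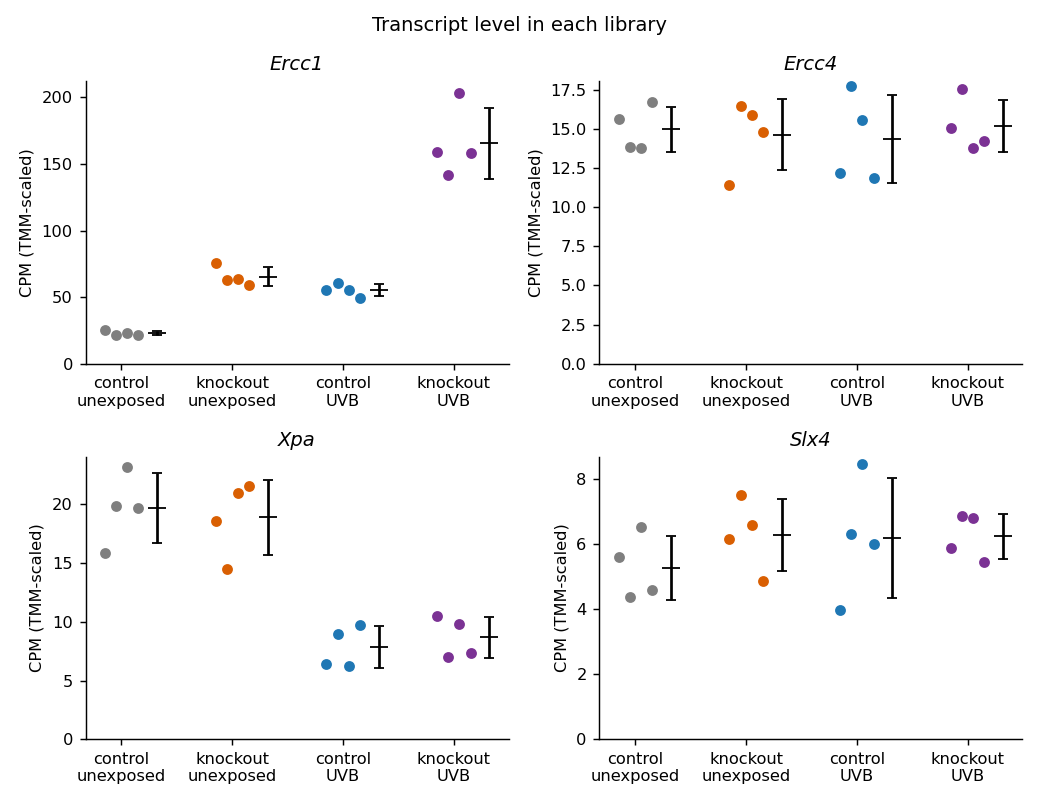
Each panel plots the TMM-scaled CPM of 1 gene (vertical axis, from 0) in the 4 libraries of each group (points), with the group mean and SD (black bar). Ercc1 spans 21.4 to 203 CPM with unexposed controls lowest, Xpa sits lower in both exposed groups, and Ercc4 and Slx4 overlap between all groups.

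The Ercc1 difference between genotypes, which led to its choice, was 2.84-fold in unexposed epidermis (log2 fold change 1.51, SE 0.13) and 2.99-fold after UVB (log2 fold change 1.58, SE 0.13). In these comparisons 2.1% and 4.68% of the 17741 genes tested were called either way at an adjusted p under 0.05, with 0.964% and 2.36% called higher and 1.14% and 2.32% called lower in the knockout. Every alternative run reused the libraries that chose Ercc1, so its values describe the processing and are no independent support for the difference. The size of the Ercc1 difference was close under each. With each library of the groups compared left out in turn, it was 1.43 to 1.58 unexposed and 1.47 to 1.65 after UVB. With the mitochondrial share of each library in the model it was 1.5 unexposed and 1.49 after UVB. That share ran from 5.62% to 8.57% among control libraries and 4.33% to 10.2% among knockout libraries without exposure, and from 5.24% to 9.65% and 5.44% to 5.99% with it. Markers of Langerhans cells, the antigen-presenting cells of the epidermis, summed to 619 to 835, 668 to 1020, 725 to 927 and 918 to 1152 CPM in unexposed controls, unexposed knockouts, exposed controls and exposed knockouts. Of 7 Langerhans markers 1 rose in the knockout unexposed and 4 after UVB. The part of these cells in the Ercc1 difference was not tested.

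UVB raised Ercc1 in both genotypes. The choice of the gene did not use this contrast, but it used the values of the same libraries. The p-values for Ercc1 are therefore not independent of that choice. Ercc1 rose 2.41-fold in control epidermis (log2 fold change 1.27, SE 0.13, edgeR adjusted p = 2.31e-07). In knockout epidermis it rose 2.53-fold (log2 fold change 1.34, SE 0.13, edgeR adjusted p = 2.27e-07). All 4 exposed libraries were above all 4 unexposed libraries within each genotype, but the share of all genes separated in this way is not given here. These were comparisons in which many genes moved: 35.8% of genes were called in controls and 32.2% in knockouts, with 17.7% and 18.1% called higher. Both Ercc1 calls held with each library left out (highest adjusted p = 3.34e-06 in controls and 2.55e-06 in knockouts). The 6 genes read as neutrophil markers were S100a8, S100a9, Ly6g, Mpo, Csf3r and Cxcr2, and their sum was higher in the exposed libraries. Without exposure it was 67.6 to 230 CPM for control libraries and 90.8 to 190 CPM for knockout libraries. With exposure it was 672 to 1092 CPM and 309 to 571 CPM. The sum does not show how much each gene gave. Of the 5 of these 6 markers that were tested, 3 rose after UVB in controls and 2 in knockouts. Of the defining neutrophil genes, Ly6g was at 0 in 3 of the 4 groups. Whether the sum reflects neutrophils, and any part of them in the Ercc1 rise, was not tested.

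The UVB response of Ercc1 in knockouts minus that in controls was 0.07 on the log2 scale (SE 0.18). This value is the difference of the genotype differences that chose Ercc1, and is likewise given as a description, without a test. Across all genes 0% were called in this comparison by edgeR, while 1043 had an unadjusted p under 0.05, DESeq2 called 31 and limma voom called 0.

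**Figure D2:**
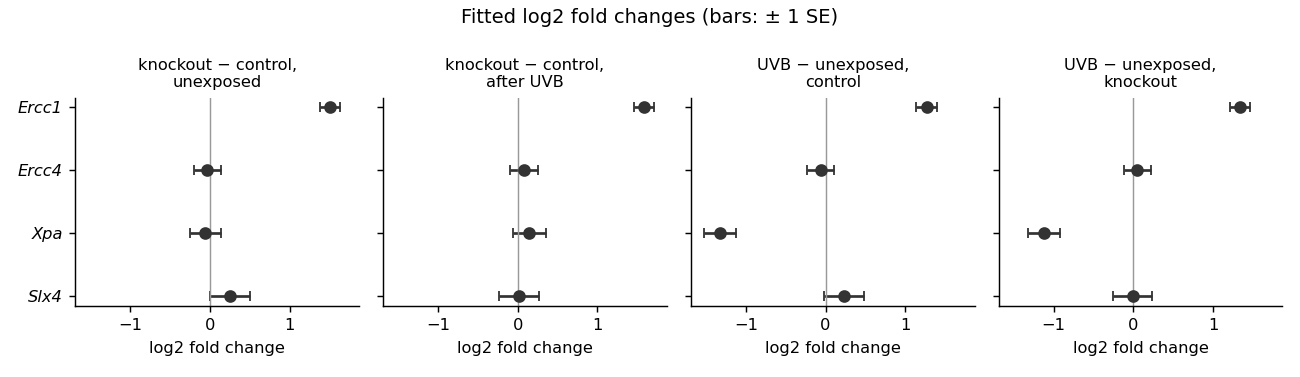
The 4 panels show fitted log2 fold changes (horizontal axis) of the 4 genes in 4 comparisons, with bars of 1 SE on each side. Ercc1, which was chosen by its difference between genotypes, lies right of 0 in all 4 panels. Xpa lies left of 0 in both UVB panels (-1.32 and -1.12), and Ercc4 and Slx4 lie between -0.06 and 0.25 throughout.

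Ercc4, which encodes the catalytic partner of ERCC1, stayed within a narrow range. Its unexposed control libraries held 15.6, 13.8, 13.8 and 16.7 CPM (mean 14.98 ± 1.43, n = 4) and its unexposed knockout libraries 11.4, 16.5, 15.9 and 14.8 CPM (14.6 ± 2.26, n = 4). Exposed controls held 12.2, 17.7, 15.6 and 11.9 CPM (14.4 ± 2.81, n = 4) and exposed knockouts 15.1, 17.5, 13.8 and 14.3 CPM (15.2 ± 1.65, n = 4). All 4 groups overlapped, and the highest of the 16 libraries was 1.55 times the lowest. The log2 difference between genotypes was -0.04 unexposed (SE 0.17, edgeR adjusted p = 0.987) and 0.08 after UVB (SE 0.17, adjusted p = 0.863). Exposed minus unexposed, Ercc4 differed by -0.06 on the log2 scale for controls (SE 0.17, edgeR adjusted p = 0.821) and by 0.05 for knockouts (SE 0.17, adjusted p = 0.87). The approximate 95% intervals of these 4 differences reached from -0.40 to 0.42 at their widest on the log2 scale. The difference of the UVB responses was 0.11 (SE 0.24, edgeR adjusted p = 0.975).

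Because ERCC1 and XPF work as a pair, the ratio of their transcripts was followed within each library, per kilobase of merged exon. It was 3.33 ± 0.353 (n = 4) in unexposed controls, 9.98 ± 2.88 in unexposed knockouts, 8.48 ± 1.11 in exposed controls and 24.0 ± 5.93 in exposed knockouts (each n = 4). Ercc1 was thus the more abundant transcript per length in every library, the lowest ratio being 2.83. After UVB the log2 ratio was higher by 1.34 in controls and by 1.28 in knockouts, with no overlap between exposed and unexposed libraries in either genotype (exact two-sided permutation test, n = 4 against 4, p = 0.0286 in each, and 0.0286 after adjustment over both genotypes). This p is the smallest that 70 arrangements allow, and it rests on Ercc1 values of the libraries that chose the gene. The difference in the ratio between genotypes carries the Ercc1 difference that chose the gene and is given as a description.

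Xpa, the gene for the factor that places ERCC1-XPF at the damage, went the other way after UVB. Unexposed control libraries held 15.9, 19.9, 23.2 and 19.7 CPM of Xpa (19.6 ± 2.99, n = 4) and exposed control libraries 6.402, 8.99, 6.27 and 9.70 CPM (7.84 ± 1.76, n = 4). Unexposed knockout libraries held 18.5, 14.5, 20.96 and 21.5 CPM (18.9 ± 3.19, n = 4) and exposed knockout libraries 10.5, 7.03, 9.84 and 7.36 CPM (8.67 ± 1.73, n = 4). Within each genotype every exposed library was below every unexposed one, and again the share of all genes separated in this way is not given. Xpa fell 2.50-fold in controls (log2 fold change -1.32, SE 0.20, edgeR adjusted p = 3.38e-05) and 2.17-fold in knockouts (-1.12, SE 0.20, adjusted p = 0.000205), where 18% and 14.1% of all genes were called lower. Both calls held with each library left out (highest adjusted p = 0.000179 and 0.00147).

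Between genotypes Xpa overlapped at both exposures. The log2 difference was -0.06 in unexposed epidermis (SE 0.20, edgeR adjusted p = 0.982) and 0.15 after UVB (SE 0.20, adjusted p = 0.758), and the difference of the UVB responses was 0.20 (SE 0.28, adjusted p = 0.965, approximate 95% interval -0.35 to 0.76). With Xpa falling and Ercc1 rising, their ratio per kilobase moved more than that of Ercc1 to Ercc4. Xpa was the more abundant of the pair per length in unexposed controls, where the Ercc1 to Xpa ratio was 0.729 ± 0.165 (n = 4). This order depends on the merged exon lengths, since the ratio of plain CPM in these libraries was 1 to 1.6. Per kilobase the ratio was 2.16 ± 0.475 in unexposed knockouts, 4.46 ± 1.06 in exposed controls and 11.8 ± 1.72 in exposed knockouts (each n = 4). These groups did not overlap with each other.

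**Figure D3:**
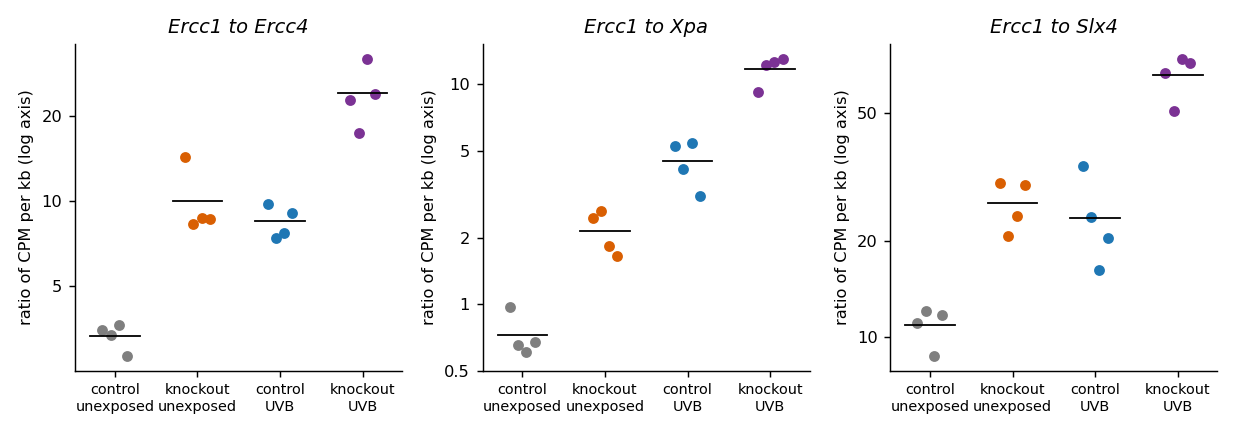
Ratios of Ercc1 to Ercc4, to Xpa and to Slx4 in each library (points), computed on CPM per kilobase of merged exon and drawn on log axes, with the group mean as a line. For Ercc4 the ratio spans 2.83 to 31.8 and for Xpa 0.609 to 13.1, with unexposed controls lowest and exposed knockouts highest in each panel.

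Slx4, the scaffold gene, had the lowest level of the 4 genes. It held 5.62, 4.38, 6.52 and 4.59 CPM in unexposed controls (5.28 ± 0.990, n = 4) and 6.15, 7.502, 6.60 and 4.87 CPM in unexposed knockouts (6.28 ± 1.09, n = 4). Exposed controls held 3.96, 6.32, 8.46 and 6.01 CPM of Slx4 (6.19 ± 1.84, n = 4) and exposed knockouts 5.88, 6.86, 6.80 and 5.46 CPM (6.25 ± 0.690, n = 4). All groups overlapped. Its log2 differences were 0.25 between genotypes unexposed (SE 0.25, edgeR adjusted p = 0.832), 0.01 between genotypes after UVB (SE 0.25, adjusted p = 0.985), 0.23 after UVB in controls (SE 0.25, adjusted p = 0.521) and -0.01 after UVB in knockouts (SE 0.25, adjusted p = 0.986). The difference of its UVB responses was -0.24 (SE 0.35, edgeR adjusted p = 0.965). Raw counts were 143 to 424 per library, and the intervals of the first 4 differences reached from -0.50 to 0.74 on the log2 scale. Per kilobase, Slx4 had 0.689 ± 0.129 CPM in unexposed controls, where Ercc4 had 2.23 ± 0.213, Ercc1 7.38 ± 0.562 and Xpa 10.4 ± 1.58 (each n = 4).

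The 4 transcripts did not move together across the 16 libraries, which share the 4 groups. Pearson's r of log2 CPM was 0.01 between Ercc1 and Ercc4, -0.56 between Ercc1 and Xpa, 0.35 between Ercc1 and Slx4 and 0.31 between Ercc4 and Slx4. Likeness was measured against 13192 genes whose mean reached 1 CPM. Those with the pattern closest to Ercc1 were Capg, an actin-capping protein gene (r = 0.96), the potassium channel gene Kcnc4 (0.94), the vascular growth factor gene Vegfa (0.94), the sphingosine phosphate receptor gene S1pr3 (0.93) and the endothelin-converting enzyme gene Ece1 (0.93), over 16 libraries. In the order unexposed control, unexposed knockout, exposed control and exposed knockout, Capg had means of 33.9, 60.1, 50.1 and 98.0 CPM and Vegfa 27.0, 74.4, 58.8 and 127 CPM. Closest to Xpa were Sh2d4a (r = 0.98), Tbc1d9 (0.98) and Cyp39a1 (0.98), whose Cyp39a1 means fell from 15.2 and 13.5 CPM unexposed to 1.63 and 2.53 CPM after UVB in control and knockout. For Slx4 the closest were Hmces, Zfp61 and Ufc1 (r = 0.82, 0.82 and 0.81), and for Ercc4 they were Vps33b, Zbtb49 and Med12 (0.74, 0.73 and 0.70). These values are descriptions.

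Genes beside Ercc1 on chromosome 7 were examined for the same difference between genotypes. The 10 tested genes nearest to it, 5 on each side, run from Vasp, whose start lies 73 kb before the Ercc1 start, to Klc3, 59.3 kb after it. Of these 10, 0 were called by edgeR between genotypes unexposed and 0 after UVB. An unadjusted p under 0.05 was found for 2 and 3 of them, beside 2208 and 3595 of the 17741 genes tested. Limma voom called 0 and 0. DESeq2 called 1 each, Fosb unexposed and Ppp1r13l after UVB, where it called 742 and 1493 of all genes. With 2.1% and 4.68% of all genes called, a count of 0 in 10 genes says little about the neighbours. Their median log2 difference was 0.17 unexposed and 0.10 after UVB, against medians of 0.00218 and 0.04 over all genes tested. Ercc2, the TFIIH helicase gene that lies 37.2 kb after Ercc1, had log2 differences between genotypes of 0.06 unexposed (SE 0.13, edgeR adjusted p = 0.966) and 0.07 after UVB (SE 0.13, adjusted p = 0.83). Fosb, an AP-1 subunit gene, was at 2.24 unexposed (SE 0.58, edgeR adjusted p = 0.0741) and at -0.30 after UVB (SE 0.55, adjusted p = 0.832). D830036C21Rik, whose start lies 2.26 kb before that of Ercc1, was at -0.52 unexposed (SE 1.24, edgeR adjusted p = 0.967) and at 2.03 after UVB (SE 1.27, adjusted p = 0.394).

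Cd3eap, a gene for an RNA polymerase I subunit on the opposite strand, overlaps the end of Ercc1 by 511 bases, and 106 exon bases, 3.41% of those of Ercc1, are shared. The kit keeps strand, but whether the counting used it is not stated, so reads in the shared bases cannot be assigned to either gene with certainty. Cd3eap had 118 ± 14.99 CPM in unexposed controls and 140 ± 32.8 CPM in unexposed knockouts (log2 difference 0.25, SE 0.15, edgeR adjusted p = 0.592), and 288 ± 43.2 and 230 ± 25.4 CPM after UVB (log2 difference -0.32, SE 0.15, adjusted p = 0.239; each n = 4). Its direction after UVB was thus opposite to that of Ercc1 between genotypes, without passing the test. After irradiation Cd3eap rose in controls (log2 fold change 1.29, SE 0.16, edgeR adjusted p = 2.04e-06) and in knockouts (0.72, SE 0.15, adjusted p = 0.000989). Of the 10 neighbours 5 rose and 0 fell after UVB in each genotype, where 17.7% of all genes in controls and 18.1% in knockouts were called higher. Vasp, Cd3eap, Ppp1r13l and Ercc2 were called in both, Fosb in controls and Klc3 in knockouts.

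**Figure D4:**
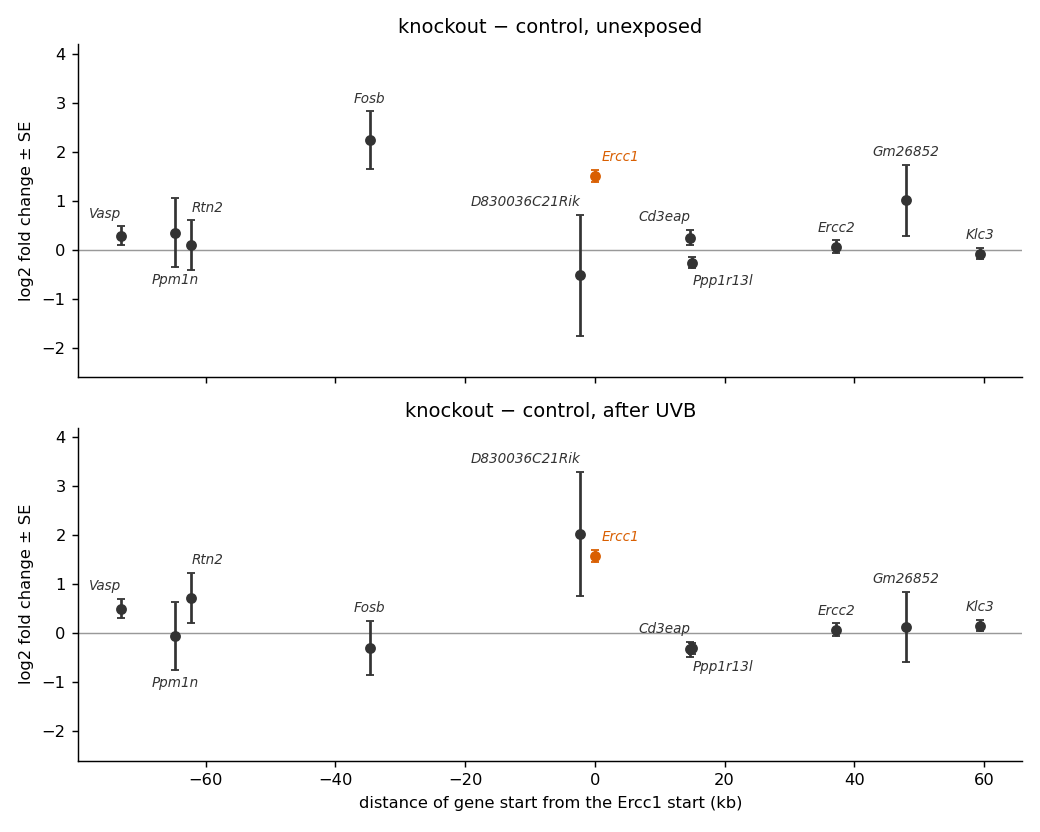
Log2 difference between knockout and control (vertical axis, with bars of 1 SE) of Ercc1 and the 10 nearest tested genes against the distance of each gene's start from that of Ercc1 in kb, unexposed (top) and after UVB (bottom). Ercc1, which was chosen by this difference, lies at 1.51 and 1.58, Ercc2 at 0.06 and 0.07 and Cd3eap at 0.25 and -0.32. Fosb unexposed (2.24) and D830036C21Rik after UVB (2.03) lie above Ercc1 with wide bars.

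Xpa also overlaps a gene on the opposite strand, Ncbp1, which encodes a subunit of the nuclear cap-binding complex. They share 77 exon bases, 4.07% of those of Xpa. Ncbp1 rose after UVB, from 40.8 ± 2.65 to 58.4 ± 4.21 CPM in controls (n = 4; log2 fold change 0.52, SE 0.12, edgeR adjusted p = 0.00237) and from 41.8 ± 4.35 to 63.0 ± 8.36 CPM in knockouts (0.59, SE 0.12, adjusted p = 0.000811), while Xpa fell. In the annotation used, Ercc4 and Slx4 overlapped 0 other genes.

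The wider repair machinery was read from 5 lists: 10 genes of damage recognition, 10 of TFIIH, RPA with Ercc5 (4 genes), 11 genes of nucleases and platforms around SLX4, and 25 of the Fanconi anaemia pathway for crosslinks. All 60 were tested. Between genotypes, 0 of 60 were called by edgeR in unexposed epidermis and 0 of 60 after UVB, beside the 2.1% and 4.68% of all genes given above. An unadjusted p under 0.05 was found for 5 and 11 of them, beside 2208 and 3595 of the 17741 genes tested. Limma voom called 0 and 0. DESeq2 called Brca2 unexposed and Faap100 and Topbp1 after UVB, where it called 742 and 1493 of all genes. The list median was 0.03 unexposed and 0.18 after UVB on the log2 scale. Closest to the threshold unexposed was Brca2, a recombination mediator gene (log2 difference 0.56, SE 0.17, edgeR adjusted p = 0.106). After UVB it was Topbp1, a checkpoint platform gene (0.61, SE 0.19, adjusted p = 0.063). The TFIIH gene Gtf2h3 after UVB was at 0.49 (SE 0.16, edgeR adjusted p = 0.0758) and Rpa1 at 0.58 (SE 0.21, adjusted p = 0.117). Brca1 after UVB was at 0.96 (SE 0.35, edgeR adjusted p = 0.119) and Mad2l2, a translesion synthesis gene, unexposed at -0.84 (SE 0.28, adjusted p = 0.149).

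After UVB, 14 of the 60 repair genes rose and 17 fell in controls, which is 51.7% called against 35.8% of all genes, and 16 rose and 8 fell in knockouts, 40% against 32.2%. The list medians were -0.10 and 0.14, against -0.02 and 0.00963 over all genes. Of the 10 recognition genes 4 rose and 3 fell in controls and 5 rose and 0 fell in knockouts. Xab2, whose product binds XPA, rose 1.96-fold in controls (SE 0.13 on the log2 scale, edgeR adjusted p = 1.03e-05) and 1.67-fold in knockouts (adjusted p = 0.000207). Ddb1, of the UV-damage binding complex, rose 1.43-fold (edgeR adjusted p = 0.00731) and 1.68-fold (adjusted p = 0.000385). The damage sensor gene Xpc fell in controls, from 11.9 to 5.98 CPM in the mean (log2 fold change -0.996, SE 0.31, edgeR adjusted p = 0.0147), though its groups overlapped.

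In the TFIIH list 3 rose and 2 fell in controls and 5 rose and 0 fell in knockouts. The helicase genes Ercc2 and Ercc3 rose in both genotypes, Ercc2 1.62-fold and 1.63-fold (edgeR adjusted p = 0.000312 and 0.000289) and Ercc3 1.49-fold and 1.64-fold (adjusted p = 0.00819 and 0.0016). Ercc5, whose product makes the cut opposite to that of ERCC1-XPF, rose 1.83-fold in controls (SE 0.16, edgeR adjusted p = 0.000257) and 1.38-fold in knockouts (adjusted p = 0.0318). Rpa1, of the single-strand binding complex that works beside XPA, fell 1.96-fold and 1.49-fold (edgeR adjusted p = 0.00118 and 0.0429). Rpa2, of the same complex, was at 0.66 in controls and 0.66 in knockouts on the log2 scale (edgeR adjusted p = 0.0514 and 0.0544), without passing the test.

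Around SLX4, 1 of 11 genes rose and 4 fell in controls, and 2 rose and 2 fell in knockouts. The mismatch repair gene Msh3 fell 3.02-fold and 2.30-fold (edgeR adjusted p = 0.000117 and 0.00165). Slx1b, the nuclease partner of SLX4, fell 2.88-fold in controls (log2 fold change -1.53, SE 0.35, edgeR adjusted p = 0.00171). Its means there were 15.5 CPM unexposed and 5.37 CPM after UVB, against 8.85 and 7.14 CPM in knockouts. Unexposed, its log2 difference between genotypes was -0.80 (SE 0.34, edgeR adjusted p = 0.318). In the Fanconi anaemia list 5 rose and 7 fell in controls and 3 rose and 5 fell in knockouts. Brca2 rose 4.95-fold and 4.14-fold (edgeR adjusted p = 1.07e-08 and 7.26e-08) and Faap100, a core complex gene, 2.83-fold and 2.18-fold (adjusted p = 1.24e-08 and 6.29e-07), whereas Fancc fell 2.76-fold and 1.99-fold (adjusted p = 2.45e-05 and 0.00117). For the difference of the UVB responses 0 of 60 were called by edgeR, limma voom or DESeq2. An unadjusted p under 0.05 was found for 6, beside 1043 of the 17741 genes tested.

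**Figure D5:**
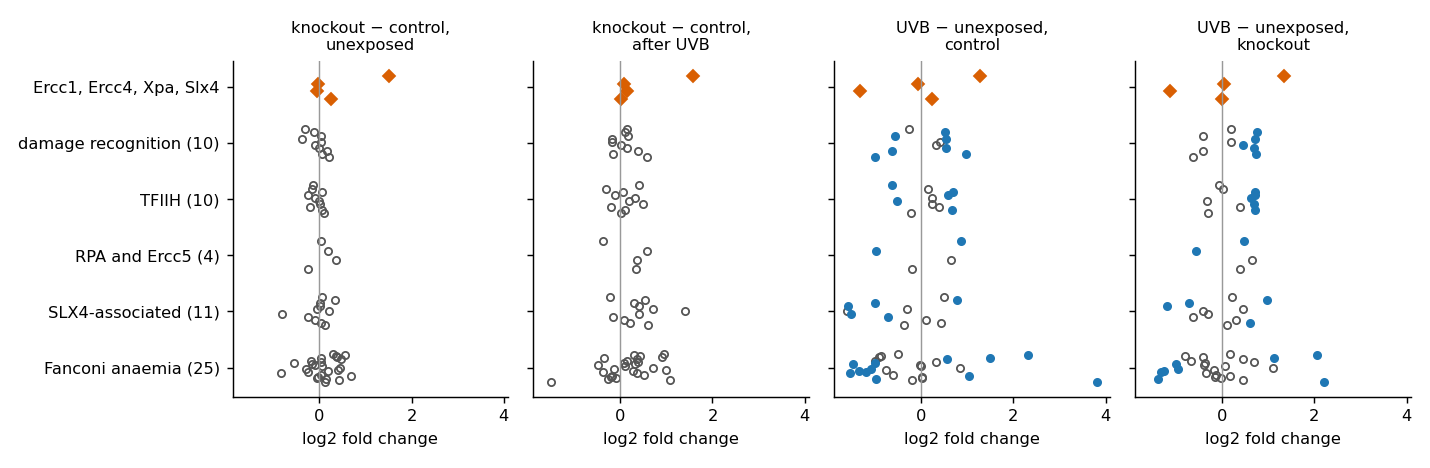
Log2 fold changes (horizontal axis) of Ercc1, Ercc4, Xpa and Slx4 (orange diamonds, in that order from top) and of the 60 other repair genes by role (circles, filled blue where called by edgeR) in 4 comparisons. In both panels of knockout minus control 0 circles are filled. Ercc1, which was chosen by this difference, is the diamond furthest right there. In the UVB panels filled circles lie on both sides of 0.

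Xpa is known to follow the circadian clock in mouse tissue, so clock genes were read beside it. Of 14 tested clock genes 3 rose and 5 fell after UVB in controls, and 1 rose and 5 fell in knockouts, 57.1% and 42.9% called against 35.8% and 32.2% of all genes, where 18% and 14.1% were called lower. The list thus went both ways, and the genes named next are from those that fell. The clock output gene Dbp fell 4.60-fold in controls and 4.75-fold in knockouts (edgeR adjusted p = 8.05e-07 and 1.06e-06). The output genes Tef and Hlf fell too, Tef 2.13-fold and 2.35-fold (adjusted p = 3.01e-06 and 1.22e-06) and Hlf 3.58-fold and 4.26-fold (adjusted p = 4.14e-06 and 1.59e-06). Between genotypes, Tef and Nr1d1 fell in exposed knockouts (log2 fold change -0.59 and -0.69, edgeR adjusted p = 0.0148 and 0.0374), with overlapping groups, in a comparison with 4.68% of all genes called. They had the smallest p unexposed too, without passing (-0.44 and -0.50, edgeR adjusted p = 0.1 and 0.224). The times of day of collection are not given in the labels, and the clock's part in the fall of Xpa was not tested.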

How the data were processed

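RNA from the epidermis of 16 samples in 4 groups was sequenced after NEBNext Ultra Directional library preparation, per the labels. The authors deposited unnormalised counts for each Ensembl gene. Per the submitters' processing notes the tools were FastQC, STAR, HTSeq and DESeq2, and their versions, the build and the strand setting were not given in the sources used here. Of 49585 genes 49326 had a symbol in GENCODE M21 (GRCm38). Members, lists, motifs and tests were chosen with earlier results of these data known. Counts were fitted with edgeR 4.0.16 (R 4.3.3): filterByExpr kept 17741 genes, TMM scaled the libraries, and a robust quasi-likelihood model had 1 mean per group over all 16 libraries. Two-sided tests were adjusted by Benjamini-Hochberg over every gene tested, and a gene was called below 0.05. The SE is the log2 fold change over the root of F, and the 95% intervals use a normal approximation. Levels between genes were divided by merged exon length. Ratios used no pseudocount. Replicates of 1 group were compared over genes averaging 20 counts, and chi-square divided by its degrees of freedom was at least 46.99, above counting noise. Named genes were the members, up to 3 called genes per list and comparison or the 2 with the smallest p, 5 neighbours on each side, and the closest patterns (5 for Ercc1, 3 for each partner, log2 CPM with a prior count of 2); Xpc and Rpa2 were added after their values were seen. Replicates are numbered in accession order. Alternatives were upper-quartile scaling, DESeq2 1.42.0, limma 3.58.1 voom, no filter, only the groups compared, each library left out, other pseudocounts, and, added after seeing the data, the mitochondrial share as a covariate. The test scripts were tested on simulated data. Of 100 genes changed 2-fold, edgeR recovered 50 between genotypes unexposed, 52 after UVB and 20 for the difference of responses. Of 100 changed 4-fold it recovered 83, 79 and 79. Smaller changes can thus be missed where 0 genes were called. Figures were drawn with matplotlib 3.10.9 in Python 3.11.15.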

Additional observations from a re-analysis of the deposited data

How the results depend on the processing

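The UVB rise of Ercc1 and fall of Xpa kept direction and call in both genotypes under all alternatives run. The Ercc1 difference between genotypes kept its sign, but these runs reuse the libraries that chose the gene. Members near 0 changed sign without passing the test under any alternative. With upper-quartile scaling Ercc4 between genotypes unexposed was 0.0049 and its UVB difference in knockouts -0.040, which was -0.0049 with DESeq2, -0.0057 without a filter and -0.0050 with only the groups compared. With DESeq2 Slx4 between genotypes after UVB was -0.019. With the mitochondrial share as a covariate Ercc4 and Slx4 between genotypes after UVB were -0.0012 and -0.0086, and the difference of the Ercc1 UVB responses -0.0015. Leaving out each library gave Ercc4 -0.096 to 0.067 between genotypes unexposed, -0.023 to 0.22 after UVB, -0.24 to 0.017 for UVB in controls, -0.052 to 0.11 in knockouts and -0.013 to 0.24 for the difference of responses. It gave Xpa -0.15 to 0.051 between genotypes unexposed, Slx4 -0.16 to 0.18 between genotypes after UVB and -0.16 to 0.086 for UVB in knockouts, and Ercc1 -0.038 to 0.15 for the difference of responses. The log2 ratio of Ercc1 to Ercc4 in knockouts was 1.13 to 1.46 higher after UVB, but its exact permutation p, adjusted, was 0.0571 without exposed knockout replicate 1, 3 or 4. The ratio was 1.29, 1.13 and 1.27 higher in these runs. Leaving out a library also lowers the number of arrangements, so p moves in larger steps.

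Genes called between genotypes unexposed were 373, with DESeq2 742, and 134 to 435 with a library left out (225, 144 and 134 without control replicate 2, 3 or 4, and 148 and 168 without knockout replicate 1 or 2). After UVB they were 830, with DESeq2 1493, with the mitochondrial covariate 401, and 419 to 1356 with a library left out (1356 and 529 without control replicate 2 or 3, and 492, 419 and 520 without knockout replicate 1, 2 or 3). For the difference of responses they were 0, with DESeq2 31, without a filter 2, and 0 to 2 with a library left out. The cause was not tested. No paired analysis was possible because the labels give no replicate numbers that groups share. Depth limits Slx4 most, at 143 to 424 counts per library.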
